A study of Mus musculus with 6 samples.

Results

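The genes described here are 10 well-known targets of the transcription factor p53, Cdkn1a, Mdm2, Fas, Bax, Bbc3, Ccng1, Trp53inp1, Phlda3, Zmat3 and Btg2. A member was read from a feature of the deposited table that the platform annotation gives to that gene symbol alone, and from the brightest one where there were several. This found 9 of the 10 genes among 18820 genes tested. Bax and the p53 gene itself, Trp53, were not analysed here. Expression was measured in primary hepatocytes, liver cells freed by perfusion and digestion and then cultured, from male wildtype C57BL/6J mice aged 8 to 10 weeks. Both groups received an adenovirus at a multiplicity of infection of 100. In the control group it encoded green fluorescent protein (Ad-GFP), and in the other it encoded nuclear CREBH (Ad-nuclear CREBH), the mouse fragment that acts as a transcription factor without release from the membrane, driven by a cytomegalovirus promoter. RNA was taken 24 h later from 3 dishes per group, each of which was read on its own array. All comparisons are therefore with virus-treated cells, and dishes without virus were not part of them.

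p53 is a transcription factor that becomes stable when DNA is damaged or the cell is otherwise stressed. Its targets stop the cell cycle, start apoptosis, repair DNA or lower stress, and one of them, Mdm2, encodes the ubiquitin ligase that in turn degrades p53. In hepatocytes they are known for their response to DNA-damaging agents and to loss of Mdm2. CREBH, the product of Creb3l3, binds DNA at cAMP-response-like elements and is known for lipid, glucose and acute-phase genes of the fed and fasted liver.

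Of the 9 members measured, 5 fell with nuclear CREBH, 1 rose and 3 did not pass. A gene was said to rise or fall where limma gave an adjusted p (Benjamini-Hochberg, over all genes) below 0.05. By this rule 37.4% of all genes tested changed, 18.2% fell and 19.2% rose. The members were chosen with earlier results of these data known, so their counts are a description. Trp53inp1, Fas and Phlda3 fell 9.64-fold, 7.39-fold and 5.26-fold. Mdm2 and Ccng1 fell 1.76-fold and 1.5-fold. Cdkn1a, often read as a reporter of p53 activity, was the one that rose, 1.39-fold. Bbc3, Zmat3 and Btg2 did not pass. Values are RMA expression levels on the log2 scale, and the log2 change is the Ad-nuclear CREBH mean minus the Ad-GFP mean. The median log2 change of the 9 members was -0.59, against 0.039 for all genes tested.

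The promoters of the members are shown first, since p53 acts on its targets through a DNA element that can be read from the sequence. The element is a pair of 10-letter p53 motifs in a row, 20 letters in all. RefSeq promoter windows (build GRCm38.p6, 250 bases before to 50 bases after a start) were found for 8 of the 10 members, in 11 windows, and not for Trp53inp1 and Zmat3. With up to 3 mismatches and no spacer, an element was found in a window of 4 members, Cdkn1a, Ccng1, Bbc3 and Bax. Of the 11 member windows 4 held one, and of all 32851 windows 6.29% did. Known p53 elements of Mdm2 and Fas lie in introns, outside these windows, so that a window without a match says nothing about p53 at these genes. The 250 bases before the start are printed, 5′ to 3′, for Cdkn1a, which rose, for Ccng1, which fell and holds an element, and for Phlda3, which fell by more and holds none. Capitals mark elements with up to 3 mismatches, 1 in Cdkn1a and 2 in Ccng1.
Cdkn1a (chr17:29090729-29090978, plus strand): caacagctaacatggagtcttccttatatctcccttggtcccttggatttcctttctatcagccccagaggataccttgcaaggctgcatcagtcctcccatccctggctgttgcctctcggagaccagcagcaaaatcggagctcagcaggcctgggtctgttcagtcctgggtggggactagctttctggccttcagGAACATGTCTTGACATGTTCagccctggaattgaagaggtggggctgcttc
Ccng1 (chr11:40755287-40755536, minus strand): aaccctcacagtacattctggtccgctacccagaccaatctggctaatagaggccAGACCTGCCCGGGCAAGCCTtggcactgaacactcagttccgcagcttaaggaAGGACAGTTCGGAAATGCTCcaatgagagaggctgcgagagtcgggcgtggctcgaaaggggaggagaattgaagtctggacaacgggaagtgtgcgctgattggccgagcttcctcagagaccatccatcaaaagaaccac
Phlda3 (chr1:135765835-135766084, plus strand): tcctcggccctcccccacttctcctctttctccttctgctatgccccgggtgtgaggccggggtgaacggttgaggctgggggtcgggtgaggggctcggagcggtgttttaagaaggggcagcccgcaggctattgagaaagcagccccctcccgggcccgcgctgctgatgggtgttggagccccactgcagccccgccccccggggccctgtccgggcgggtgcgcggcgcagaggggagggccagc

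The element of Cdkn1a and the first of Ccng1 each had 1 mismatch. Only 0.798% of all windows held one with up to 2 mismatches. That of Cdkn1a began 51 bases before the upstream one of its 2 starts and that of Ccng1 195 bases before its start. The letters TGACG, the core of a cAMP-response element to which CREB-type factors bind, were searched on both strands. They were found in 3 of the 11 member windows, of Btg2, Mdm2 and Bbc3, and in 20.8% of all windows. The box CCACG, part of ER stress elements, was in windows of 4 members, Mdm2, Ccng1, Bbc3 and Bax. It was in 6 of the 11 member windows and in 32.8% of all windows. In Btg2 the TGACG letters of both strands overlapped in an 8-letter palindrome that began 166 bases before the start. None of these letters, and no p53 element, was found in the windows of Fas and Phlda3. The next stretches, with the bases around them in lower case, show the elements of Bbc3 and Bax, each with 3 mismatches, and the palindrome of Btg2, in capitals. The element of Bbc3 lies at chr7:16309486-16309505 (plus strand), that of Bax at chr7:45467090-45467109 (minus strand) and the palindrome at chr1:134079314-134079321 (minus strand).
Bbc3: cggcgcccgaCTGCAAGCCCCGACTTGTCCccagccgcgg
Bax: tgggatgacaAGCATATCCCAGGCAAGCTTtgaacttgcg
Btg2: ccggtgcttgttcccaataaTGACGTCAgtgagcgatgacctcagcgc

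The labels were checked first on Creb3l3, the gene of CREBH. It was at 8.49, 8.02 and 8.21 with Ad-GFP and at 9.97, 10.46 and 10.59 with Ad-nuclear CREBH, higher in every dish of the latter. The virus carries mouse sequence, so the array cannot separate its transcript from that of the endogenous gene. Alb, the albumin gene that marks hepatocytes, was at 13.28 and 13.27 in the 2 groups. Hepatocyte markers passed in both directions, 2 up and 3 down of 12, and 5 fell without replicate 1 of Ad-GFP. The log2 changes of the 12 ran from -2.29 to 0.74, so Alb alone does not describe the list. Of 12 macrophage markers 1 rose and 3 fell. Their summed linear level ran from 2706 to 3668 in Ad-GFP and from 1225 to 2594 in Ad-nuclear CREBH dishes. That sum was mostly Cd68, by far the brightest of the 12. The median log2 level of the 12 ran from 4.56 to 4.81 and from 4.43 to 4.63, and these ranges overlapped. Cd68, one of those that fell (adjusted p = 0.0215), was at 11.70, 11.52 and 11.24 against 11.16, 9.99 and 9.90, and its call was lost when any 1 of 4 of the arrays was left out (adjusted p = 0.0556 to 0.0814). Leaving out replicate 1 or 2 of Ad-GFP or replicate 3 of Ad-nuclear CREBH left 0 macrophage markers that fell. RMA values have no true zero, so no marker can be called absent. Of 10 stellate cell markers 1 fell and 0 rose, but 3 rose without replicate 1 of Ad-nuclear CREBH, and likewise with array weights, with centred arrays and after cyclic loess. Col1a1, a collagen gene named after its values were seen, was at 5.25, 4.90 and 4.77 with Ad-GFP and at 5.02, 7.30 and 7.51 with Ad-nuclear CREBH, where replicates 2 and 3 stood above all other dishes. Over all 6 arrays it did not pass (log2 change 1.63, adjusted p = 0.0619). The marker that fell was Reln, also named after its values were seen, at -1.90 (adjusted p = 1.6e-04). The summed linear level of these markers ran from 215.8 to 229.5 with Ad-GFP and from 161.9 to 386.5 with Ad-nuclear CREBH. None of 10 lymphocyte and 10 endothelial markers passed, though 1 endothelial marker fell without replicate 1 of Ad-GFP. Of 8 cholangiocyte markers 1 rose and 2 fell. The part of other cell types in the results below was not tested. In such bulk samples fewer cells of a type and less RNA per cell cannot be told apart. The array of replicate 1 stood slightly apart in both groups, with a mean correlation across genes of 0.986 with the other Ad-GFP arrays and 0.991 with the other Ad-nuclear CREBH arrays. Where leaving out 1 array ended a call of a gene named below this paragraph, or moved its fold by over 1.5 times, the value without it is given there. No label tells if each dish held cells of its own mouse, and the p-values measure the spread between these dishes only. An exact permutation test of 3 against 3 cannot go below p = 0.1.

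Trp53inp1 encodes a stress-induced nuclear protein that acts on p53 activity and on autophagy, and it had the largest fall among the members. It was at 10.83, 10.81 and 10.82 in Ad-GFP dishes and at 8.20, 7.30 and 7.15 in Ad-nuclear CREBH dishes. The Ad-GFP dishes were nearly equal, and replicate 1 was the highest of the Ad-nuclear CREBH dishes. The closest dishes of the 2 groups lay 2.61 apart. The log2 change was -3.27 (SE 0.25, 95% interval -3.85 to -2.69, adjusted p = 4.5e-05). It was -3.60 with the highest Ad-nuclear CREBH dish left out. Of 18820 genes, 114 fell by more.

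Fas is the receptor of Fas ligand at the cell surface, through which hepatocytes can be driven into apoptosis. Its values were 7.26, 8.74 and 8.70 in Ad-GFP dishes and 5.37, 5.31 and 5.36 in Ad-nuclear CREBH dishes. Here the spread lay in the Ad-GFP group, whose dishes spanned 1.48 with replicate 1 lowest, while the Ad-nuclear CREBH dishes spanned 0.061. The groups did not overlap. The log2 change was -2.89 (SE 0.37, 95% interval -3.73 to -2.04, adjusted p = 4.8e-04), and 181 genes fell by more. Leaving out replicate 1 of Ad-GFP made it -3.37, and leaving out replicate 2 of that group made it -2.63. The Ad-nuclear CREBH mean of 5.35 was a low signal, near the median of all genes on those arrays (5.09).

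Phlda3 encodes a small pleckstrin homology protein that competes with Akt for membrane lipids and so dampens survival signalling. It was at 7.53, 7.40 and 7.71 in Ad-GFP dishes and at 5.08, 5.40 and 4.98 in Ad-nuclear CREBH dishes. Both groups were tight, with ranges of 0.32 and 0.41, and the gap between them was 2.0. The log2 change was -2.39 (SE 0.17, 95% interval -2.79 to -2.0, adjusted p = 3.4e-05). Its Ad-nuclear CREBH mean of 5.15 was also a low signal.

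**Figure D1:**
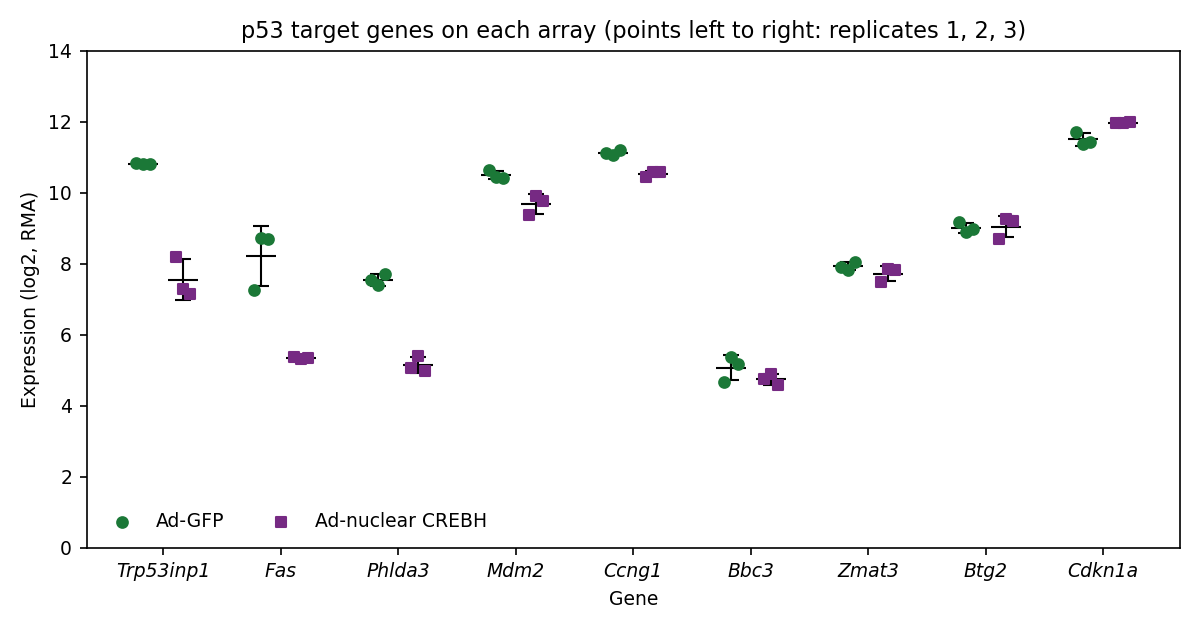
Expression (log2, RMA) of the 9 measured p53 target genes by array, with green circles for Ad-GFP and purple squares for Ad-nuclear CREBH, and the mean ± SD of 3 dishes as bars. Trp53inp1, Fas and Phlda3 show wide gaps between the groups (2.61 for Trp53inp1), whereas Bbc3, Zmat3 and Btg2 overlap.

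Mdm2, the ligase that keeps p53 low, fell by less. Its values of 10.64, 10.43 and 10.42 in Ad-GFP dishes stood above 9.36, 9.92 and 9.77 in Ad-nuclear CREBH dishes. The spread was the larger in the Ad-nuclear CREBH group, with replicate 1 lowest, and the gap between the groups was 0.50. The log2 change was -0.81 (SE 0.15, 95% interval -1.17 to -0.46, adjusted p = 0.00368).

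Ccng1, which encodes cyclin G1, a partner of protein phosphatase subunits that also acts on Mdm2, was at 11.11, 11.08 and 11.20 in Ad-GFP dishes and at 10.45, 10.58 and 10.59 in Ad-nuclear CREBH dishes. The dishes of a group lay within 0.14 of each other, and the groups were 0.48 apart. The log2 change was -0.59 (SE 0.085, 95% interval -0.78 to -0.39, adjusted p = 9.4e-04).

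Cdkn1a encodes p21, the inhibitor of cyclin-dependent kinases through which p53 halts the cell cycle. It was at 11.71, 11.36 and 11.44 in Ad-GFP dishes and at 11.97, 11.95 and 12.00 in Ad-nuclear CREBH dishes. The Ad-nuclear CREBH dishes spanned 0.044 and all of them were above the Ad-GFP dishes, of which replicate 1 was the highest. The log2 change was 0.47 (SE 0.098, 95% interval 0.25 to 0.70, adjusted p = 0.00591). After cyclic loess normalization it was 0.25 and did not pass (adjusted p = 0.0599).

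**Figure D2:**
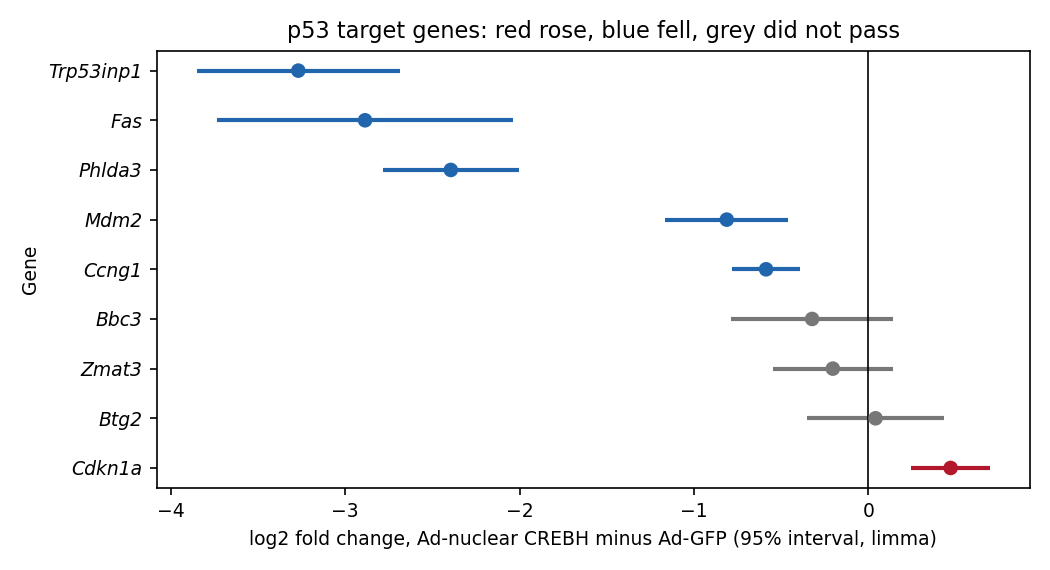
Log2 fold change of each measured p53 target gene (horizontal axis, Ad-nuclear CREBH minus Ad-GFP, 3 arrays each) with its 95% interval from limma. Genes that fell are blue, the one that rose is red and those that did not pass are grey; the intervals of Trp53inp1, Fas and Phlda3 end at -2.0 or lower.

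The other 3 members did not pass, and their intervals bound the change. Btg2, an antiproliferative protein that recruits deadenylases to mRNA and is also an early response gene, was at 9.17, 8.88 and 8.97 in Ad-GFP and at 8.70, 9.26 and 9.20 in Ad-nuclear CREBH dishes. Both the lowest and the highest of these dishes were in the Ad-nuclear CREBH group. Its log2 change was 0.042 (95% interval -0.35 to 0.44, adjusted p = 0.879), and 0.30 without both arrays numbered 1 (adjusted p = 0.00508). Zmat3, a zinc finger protein that binds RNA, was at 7.90, 7.82 and 8.05 against 7.49, 7.85 and 7.83, with a log2 change of -0.20 (95% interval -0.55 to 0.14, adjusted p = 0.343). Its groups overlapped only just, the highest Ad-nuclear CREBH dish lying above the lowest Ad-GFP dish. A further Zmat3 feature, which the annotation also gives to another gene, was not used. Bbc3 encodes PUMA, a protein that binds and disarms the survival members of the BCL2 family. Its signal was low, at 4.68, 5.36 and 5.18 in Ad-GFP and 4.75, 4.91 and 4.60 in Ad-nuclear CREBH dishes, with the groups overlapping, and its log2 change was -0.32 (95% interval -0.79 to 0.14, adjusted p = 0.266). Without Ad-GFP replicate 1, the lowest Ad-GFP dish, it was -0.52 (adjusted p = 0.0307).

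The study's methods ask for an unadjusted p under 0.001, a fold change over 2 or under 0.5 and an expression value over 300. The expression value was taken here as the mean log2 value of a group turned back to the linear scale, in at least 1 group. By these criteria Trp53inp1 and Fas were downregulated and no member was upregulated. Of all genes tested 8.01% met these criteria, 3.1% as downregulated and 4.91% as upregulated. Fas was just inside the expression minimum, with 300.6 in Ad-GFP dishes, and Phlda3 was outside it, with 187.0. The arrays of the 2 groups did not overlap for 6 of the 9 members, against 49.4% of all genes. The Ad-nuclear CREBH dishes were all below for 5 members, against 23.1% of all genes, and all above for 1, against 26.2%.

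Other p53 targets, from a list written with earlier results of these data known, were measured for 42 of 47 genes. Of these 20 fell, 9 rose and 13 did not pass, with a median log2 change of -0.23. The shares were 47.6% fallen and 21.4% risen, against 18.2% and 19.2% of all genes. Without Ad-nuclear CREBH replicate 2 only 5 rose, and 15.3% of all genes did. The 4 largest falls were close to each other. Plk2, a polo-like kinase, had a log2 change of -2.82 (SE 0.14, adjusted p = 1.8e-05). Gtse1, which shuttles p53 out of the nucleus, was at -2.80 (SE 0.21, adjusted p = 3.8e-05), with a low Ad-nuclear CREBH mean of 4.53. Gadd45a, a DNA damage and growth arrest protein, was at -2.77 (SE 0.17, adjusted p = 2.2e-05). Bcl2l1, which encodes the survival protein BCL-XL, was at -2.74 (SE 0.16, adjusted p = 2.0e-05). These genes differ in what they do, since Bcl2l1 opposes apoptosis while Gadd45a is tied to growth arrest.

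The 4 largest rises among the other targets were led by Cgref1, a secreted calcium-binding regulator of growth, at 3.75 (SE 0.43, adjusted p = 2.8e-04). Thbs1, which encodes the matrix protein thrombospondin 1, followed at 2.08 (SE 0.16, adjusted p = 4.4e-05). The tetraspanin gene Cd82 was at 1.22 (SE 0.081, adjusted p = 2.8e-05), and Klf4, which encodes a transcription factor, at 1.43 (SE 0.36, adjusted p = 0.0153). Klf4 did not pass once replicate 3 of Ad-GFP or replicate 2 of Ad-nuclear CREBH was left out (adjusted p = 0.0539 and 0.0522). Perp, a desmosomal protein, and Rps27l, a ribosomal protein homolog, were named among those that did not pass for their high mean signal, with log2 changes of 0.12 (adjusted p = 0.364) and 0.064 (adjusted p = 0.578). Together with the members, 51 measured targets gave 25 that fell (49.0%) and 10 that rose (19.6%). The share that rose was near the 19.2% of all genes, of which 18.2% fell.

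**Figure D3:**
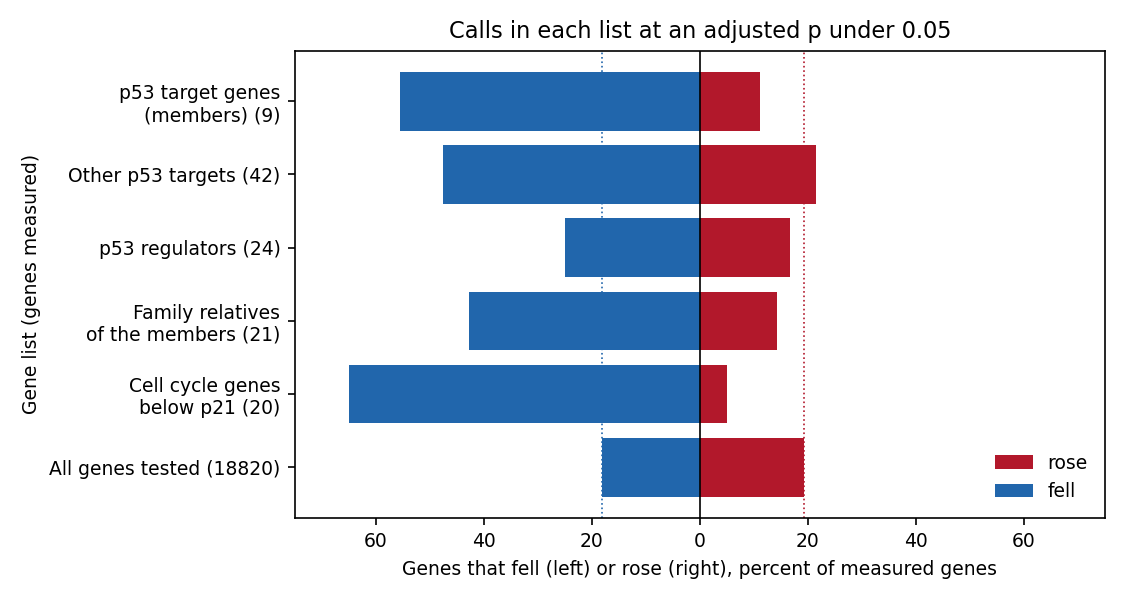
Share of the measured genes of each list that fell (blue, left) or rose (red, right), in percent, by limma with 3 Ad-nuclear CREBH against 3 Ad-GFP dishes and a threshold of 0.05 on the adjusted p, with the number of measured genes in parentheses. Dotted lines mark all genes, 18.2% fallen and 19.2% risen; the share fallen was 55.6% of the members, 47.6% of other targets and 65.0% of cell cycle genes.

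Of the genes that control p53, 24 were measured, of which 6 fell and 4 rose, with a median log2 change of -0.039. The shares of 25.0% fallen and 16.7% risen were near those of all genes (18.2% and 19.2%). Mdm4, the relative of Mdm2 that masks the activation domain of p53, fell with it, at -0.88 (SE 0.14, adjusted p = 0.00172). Chek2, a kinase that phosphorylates p53 after DNA breaks, was at -1.90 (SE 0.16, adjusted p = 5.9e-05), with low signals of 4.82 and 2.92. Trp53bp1, which binds damaged chromatin, fell from 5.94 to a low signal of 4.49 (adjusted p = 0.00105). Trim28, a corepressor that works with Mdm2, fell from 9.52 to 8.67 (adjusted p = 0.00121). The kinase gene Atr, which senses stalled replication, rose with a log2 change of 1.05 (SE 0.16, adjusted p = 0.0012). Trp53bp2, a p53 partner that favours apoptotic targets, the deacetylase gene Sirt1 and Usp7, whose product removes ubiquitin from p53 and Mdm2, rose by 0.79, 0.77 and 0.54 (adjusted p = 0.00706, 0.0099 and 0.0044). The ribosomal protein genes Rpl5 and Rpl11, whose products bind Mdm2, were at log2 changes of 0.020 (adjusted p = 0.85) and -0.11 (adjusted p = 0.266).

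**Figure D4:**
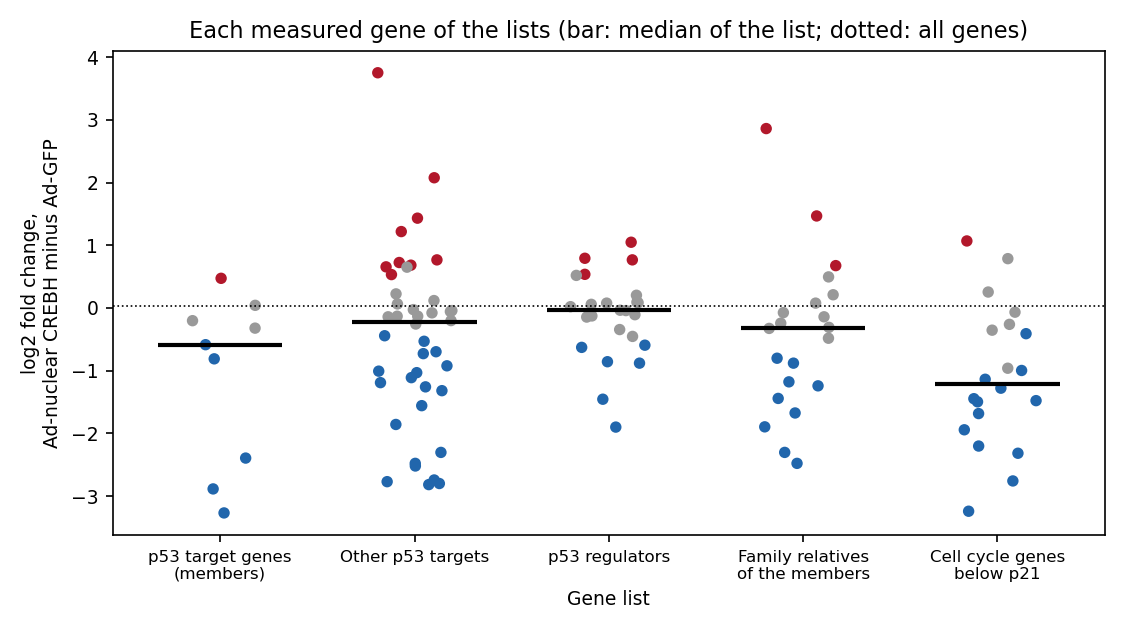
Log2 fold change (vertical axis, Ad-nuclear CREBH minus Ad-GFP, 3 arrays each) of every measured gene of the lists, red where it rose, blue where it fell and grey where it did not pass. Bars are list medians, which run from -0.039 for p53 regulators to -1.21 for cell cycle genes, and the dotted line is the median of all genes, 0.039.

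Relatives of the members, genes of the same families that are mostly not classical p53 targets, were compared side by side with them. The lists overlapped in part. Pmaip1 and Tnfrsf10b, for example, were also counted among the other p53 targets, and Mdm4 among the genes that control p53. Of 21 relatives measured, 9 fell (42.9%) and 3 rose (14.3%), against 18.2% and 19.2% of all genes. Without both arrays numbered 1, 5 rose, where 23.3% of all genes did. Within the Trp53inp pair the directions were opposite. Trp53inp2, an autophagy factor, was at 6.94, 7.85 and 7.98 in Ad-GFP and at 8.77, 9.26 and 9.14 with Ad-nuclear CREBH, which is a log2 change of 1.47 (SE 0.28, 95% interval 0.83 to 2.10, adjusted p = 0.00363), whereas Trp53inp1 had fallen. The groups of both genes were apart, in opposite directions. In the Phlda family, Phlda2, an imprinted gene known for placental growth, was at 8.26, 7.45 and 8.14 in Ad-GFP and at 10.75, 10.89 and 10.79 with Ad-nuclear CREBH, which is a log2 change of 2.86 (SE 0.20, 95% interval 2.39 to 3.33, adjusted p = 3.5e-05). Phlda1, named here after its value was seen, fell with Phlda3, at -1.44 (SE 0.14, adjusted p = 1.1e-04).

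The relatives of the remaining members mostly fell or did not pass. Ccng2, the cyclin G2 gene, fell by more than Ccng1, at -1.68 (SE 0.30, adjusted p = 0.0028). Its interval of -2.37 to -0.98 does not meet that of Ccng1. The Ad-nuclear CREBH mean of Ccng2, 5.02, was a low signal. The death receptor gene Tnfrsf10b, also listed as a p53 target, fell, as Fas did, at -2.48 (SE 0.19, adjusted p = 4.6e-05). The receptor gene Tnfrsf1a was at 0.49 (95% interval -0.0069 to 1.00, adjusted p = 0.116). It passed with the replicate number as a block (adjusted p = 0.00694). Among BCL2 family genes Pmaip1, which encodes the BH3-only protein NOXA and is a p53 target itself, fell from 6.29 to a low signal of 3.99 (adjusted p = 4.3e-05). Bok, a relative of Bax, fell from 6.91 to 5.02, also a low signal (adjusted p = 0.00128). Bmf, another BH3-only gene, rose by 0.67 (adjusted p = 0.0194), a call that was lost when any 1 of 4 of the arrays was left out (adjusted p = 0.0720 to 0.0818). Bak1, the closest partner of Bax in pore formation, and Cdkn1b, the p27 gene beside Cdkn1a, were also named after their values were seen and fell, Bak1 by 1.24 (adjusted p = 3.2e-04) and Cdkn1b by 0.80 (adjusted p = 0.0107) on the log2 scale. Btg1, the relative of Btg2, was at 10.44 and 10.51 (adjusted p = 0.782).

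**Figure D5:**
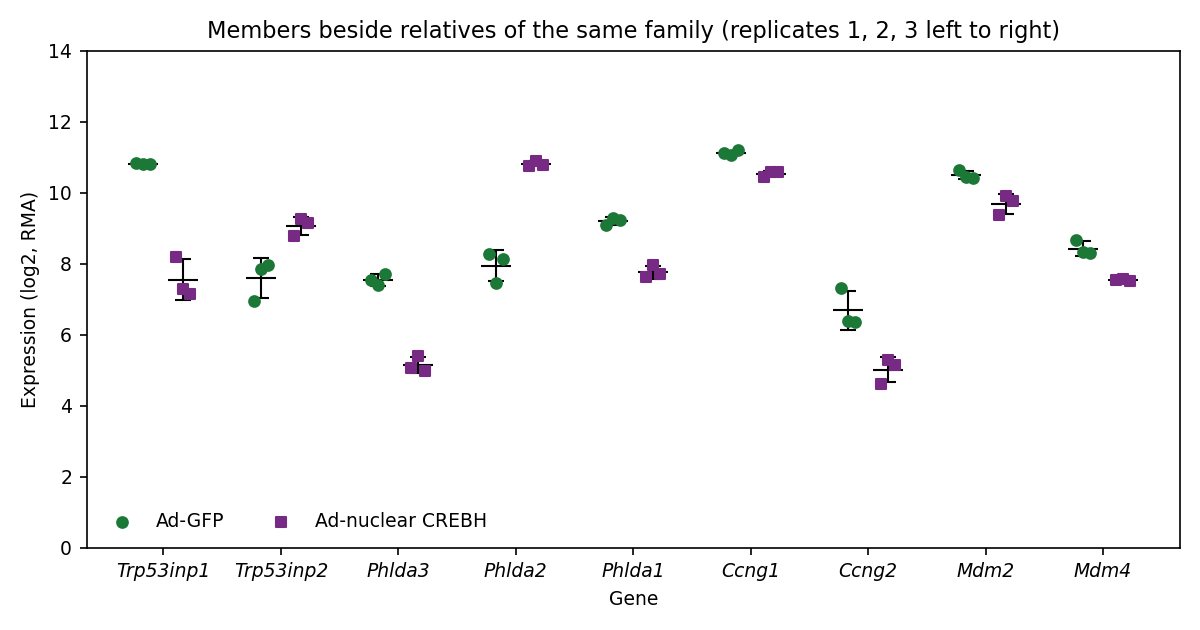
Expression (log2, RMA) of Trp53inp1, Phlda3, Ccng1 and Mdm2 beside their family relatives, with green circles for Ad-GFP arrays and purple squares for Ad-nuclear CREBH arrays, and the mean ± SD of 3 dishes as bars. Trp53inp2 and Phlda2 rose, by 1.47 and 2.86, while Trp53inp1 and Phlda3 fell.

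Cell cycle genes that p53 is known to repress through p21 and the DREAM complex were read beside Cdkn1a. Of 20 measured, 13 fell, 1 rose and 6 did not pass, with a median log2 change of -1.21. The shares were 65.0% fallen and 5.0% risen, against 18.2% and 19.2% of all genes. The number that fell was 15 without replicate 1 of Ad-GFP and 9 without replicate 2 or replicate 3 of Ad-nuclear CREBH. Ccna2, the cyclin A2 gene, was at 6.71, 8.31 and 8.63 with Ad-GFP and at 4.08, 4.93 and 4.91 with Ad-nuclear CREBH. Its log2 change was -3.24 (SE 0.48, adjusted p = 0.0011), and -3.83 without replicate 1 of Ad-GFP (adjusted p = 5.2e-05). The mitotic kinase gene Plk1 was at 5.58, 7.31 and 7.85 against 3.88, 4.18 and 4.41, so that replicate 1 was again the lowest Ad-GFP dish. It changed by -2.76 (SE 0.51, adjusted p = 0.00349), and by -3.43 without that dish (adjusted p = 3.6e-05). Ccnb2, a cyclin B gene, was at -2.32 (SE 0.44, adjusted p = 0.00388) and the spindle checkpoint gene Bub1 at -2.20 (SE 0.46, adjusted p = 0.00627). The Ad-nuclear CREBH means of Ccna2 (4.64) and Plk1 (4.15) were low signals, below the median of all genes on those arrays (5.09). The signals of Bub1 were low, and its Ad-nuclear CREBH mean of 2.79 was near the 10th percentile of those arrays (2.68 to 2.72), so the size of its change is uncertain. Mcm2, a subunit of the replicative helicase, rose by 1.07 (SE 0.16, adjusted p = 9.6e-04), and without replicate 3 of Ad-GFP 2 genes of the list rose. Mcm6, of the same helicase, was at -0.068 (adjusted p = 0.793) and Rrm2, a ribonucleotide reductase subunit, at 0.79 (adjusted p = 0.0503). None of the 13 genes that fell had an expression value over 300, taken as above, in either group. All of them therefore left the test when that minimum was set. Of the genes of the list tested under it 2 rose and 0 fell, where 39.3% of all genes above the minimum rose and 31.0% fell.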

How the data were processed

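Hepatocytes of 3 Ad-GFP and 3 Ad-nuclear CREBH dishes (60 mm, multiplicity of infection 100, 24 h) were profiled on Affymetrix Mouse Gene 1.1 ST arrays. Per the methods 100 ng of RNA was used; the labels and the methods describe different extraction kits. The deposited values were made by the authors with RMA (named in the submitters' processing notes), which corrects background, normalizes arrays to each other and summarizes probes to 1 log2 value per feature. RMA's version and the array definition are not given in the sources used here, and the log base, not written beside the values, was taken from their range. RMA shrinks differences of weak features and fits all arrays to 1 distribution, which can move small changes.

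Of 35556 features 21218 carried 1 gene symbol, 1881 several and 12457 none. The brightest single-symbol feature was used for each of 18820 genes, of which 1386 had several. All 6 arrays were fitted with limma 3.58.1 (lmFit, eBayes with an intensity trend; R 4.3.3), which has 4 residual degrees of freedom, with Benjamini-Hochberg adjustment over all genes. The steps were tested on simulated data. Figures were drawn with matplotlib 3.10.9. The number of arrays limits the precision. The members and lists were chosen with earlier results of these data known. Named were all members, Creb3l3, up to 4 largest rises and falls and 2 bright genes that did not pass from each context list, and markers mostly as counts. Bax, Trp53 and others without a single-symbol feature were not analysed here. Promoter sequences are from RefSeq (GRCm38.p6) and motifs were searched on both strands. The alternatives were other variance priors, array weights, normalizations, feature choices, filters and criteria, and leaving out arrays.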

Additional observations from a re-analysis of the deposited data

How the results depend on the processing

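Of the 6 members that passed, 100 of 101 log2 changes from refits of the data kept their direction and call. The exception was Cdkn1a after cyclic loess. The stricter thresholds set on the main fit are not among the 101. Nor is Phlda3 with only genes above 300, where it was not tested. The number of members that rose was 0 after cyclic loess and 0 when a fold change of at least 1.5 was required. It was also 0 by the criteria of the methods. Without both arrays numbered 1 it was 2, as Btg2 joined, and 23.3% of all genes rose. The number that fell was 2 by the criteria of the methods and 5 to 6 when each array was left out in turn. Bbc3 passed without Ad-GFP replicate 1, without both arrays numbered 1 (adjusted p = 0.0262) and with array weights (adjusted p = 0.0285). Centring each array on its median moved the median log2 change of all genes from 0.039 to 0.18 and the counts from 3615 risen and 3427 fallen to 4814 and 2852, and array weights gave 4624 and 4595. Testing only the 4741 genes above 300 took the dimmer genes of each list out of the test, Phlda3 (187.0) among the members. It left 4 fallen members, 11 fallen genes of the other targets, 5 of the relatives and 3 of the regulators. The lists were smaller in this setting, so these counts cannot be set against the main ones as lost calls. Of all 4741 genes 31.0% fell and 39.3% rose, against 18.2% and 19.2% of all genes in the main setting. Bright genes were thus called more often in either direction. The elements were in 2 members with up to 2 mismatches, and in 0.798% of all windows. The 10-letter motif was in 4 members (4 of 11 windows) and in 8.36% of all windows. With up to 1 mismatch it was in 7 members (9 of 11 windows) and in 70% of all windows, so that this count says little about the members.

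Small values of genes that did not pass changed sign. After quantile normalization Btg2 was at -0.092, Rpl5 at -0.0057, Rps27l at -0.10, Perp at -0.069, Btg1 at -0.11 and Alb at 0.034. After cyclic loess Btg2 was at -0.010, Rpl5 at -0.22 (adjusted p = 0.0273), Rps27l at -0.090, Perp at -0.030 and Btg1 at -0.069. With arrays centred Rpl11 was at 0.034, Mcm6 at 0.074 and Alb at 0.13, and with the mean over features Rpl5 was at -0.0087. Leaving out each array in turn gave -0.062 to 0.22 for Btg2, -0.0070 to 0.056 for Rpl5, -0.034 to 0.29 for Btg1, -0.24 to 0.023 for Mcm6 and -0.038 to 0.0074 for Alb. The cause was not tested. Same-numbered arrays deviated together with correlations of 0.178, 0.073 and 0.139, and not every array correlated best with its own number, so the numbers were not taken to pair the dishes. With the replicate number as a block 1 member rose and 5 fell, and 3715 of all genes rose and 3705 fell. Among the named genes the block added the call of Tnfrsf1a and changed no other.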
